A study of Mus musculus with 3 samples.

Results

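The genes described here are 10 products of the mucus and goblet granule programme, Muc2, Tff3, Fcgbp, Clca1, Zg16, Spink4, Agr2, Ang4, Sval1 and Retnlb, out of 32285 genes in the feature table. They were taken by symbol, and each symbol belonged to 1 feature. All 10 had at least 10 UMIs (unique molecular identifiers, each standing for 1 captured transcript) over any pair of libraries, so none was lost to a filter on low counts. The data were 3 droplet sc-RNAseq libraries of mouse colon organoids, 1 library per condition, without cytokine or after 24 h or 48 h of IFN-γ. Per the study's methods the organoids were grown from dissected mouse colon, IFN-γ was given at 50 ng/ml, and dead cells were removed by DAPI sorting after dissociation. Organoids of this kind are an epithelial culture without the immune and stromal cells of the gut wall. The study grew the sequenced organoids in full medium, with all growth factors, and describes most cells there as stem cells and dividing progenitors. With 1 library per condition there was no replicate, so no test across samples was possible. The intervals given are 95% intervals for counting error only and carry none of the spread between cultures. Those of levels and ratios from summed UMIs carry none of the spread between cells either. Both treated libraries were set against the same untreated library.

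Goblet cells are the secretory cells of the intestinal epithelium that make the mucus gel. They pack the gel-forming mucin and its partner proteins into granules near the lumen and release them continuously and on demand, and in the colon the inner mucus layer keeps bacteria away from the epithelium. The lineage is specified through the transcription factor Atoh1 and matured by Spdef. Interferon-γ is a cytokine of T cells and natural killer cells.

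After the filters used in the study, 1058, 917 and 2934 cells were kept in the untreated, 24 h and 48 h libraries, and their median depth was 33550, 68784 and 10772 UMIs. These depths differ widely, so every value per cell below comes from cells subsampled to 5000 UMIs each. All 8 genes of a list of known IFN-γ targets were higher in both treated libraries, by median log2 ratios of 8.64 and 8.50. Of 10 immune and stromal markers, 6, 5 and 7 were at 0 in the 3 libraries and the summed list held 76, 36 and 49 UMIs. Between 1 and 4 kept cell barcodes were shared by each pair of libraries.

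In the GENCODE vM21 annotation of GRCm38 all 10 genes are protein coding. Muc2 lies at chr7:141690340-141754693 and Fcgbp at chr7:28071236-28120862, both on the plus strand, and Zg16 lies at chr7:127050156-127087328 on the minus strand. Tff3 (chr17:31125306-31129646), Clca1 (chr3:145003817-145032776) and Ang4 (chr14:51763878-51773590) are on the minus strand. Spink4 (chr4:40920052-40931395), Agr2 (chr12:35992907-36004087), Sval1 (chr6:41951630-41956098) and Retnlb (chr16:48816856-48818892) are on the plus strand. Zg16 overlaps 2 annotated genes on the opposite strand, Gm44939 and Gm22747, and the other 9 overlap none.

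RefSeq promoter sequences (GRCm38.p6) were at hand for 5 of the 10 genes, Muc2, Fcgbp, Agr2, Ang4 and Sval1. The 250 bases before the start are printed for 3 of them, the gel-forming mucin, a partner protein and a secreted antimicrobial. They show the sequence in front of genes whose levels are compared below. Capitals mark matches to CANNTG, the E-box that basic helix-loop-helix factors such as Atoh1 can bind. The Muc2 stretch is chr7:141690090-141690339 on the plus strand, the Fcgbp stretch chr7:28070986-28071235 on the plus strand and the Ang4 stretch chr14:51773591-51773840 on the minus strand.
Muc2: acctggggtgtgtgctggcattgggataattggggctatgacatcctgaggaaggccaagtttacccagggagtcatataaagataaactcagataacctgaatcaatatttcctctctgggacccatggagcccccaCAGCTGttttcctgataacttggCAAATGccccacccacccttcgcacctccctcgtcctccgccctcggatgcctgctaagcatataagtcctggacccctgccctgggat
Fcgbp: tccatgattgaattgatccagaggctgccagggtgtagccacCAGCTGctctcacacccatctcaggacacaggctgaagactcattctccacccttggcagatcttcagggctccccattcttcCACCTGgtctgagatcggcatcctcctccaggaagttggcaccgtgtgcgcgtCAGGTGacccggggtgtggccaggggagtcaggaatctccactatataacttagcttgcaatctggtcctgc
Ang4: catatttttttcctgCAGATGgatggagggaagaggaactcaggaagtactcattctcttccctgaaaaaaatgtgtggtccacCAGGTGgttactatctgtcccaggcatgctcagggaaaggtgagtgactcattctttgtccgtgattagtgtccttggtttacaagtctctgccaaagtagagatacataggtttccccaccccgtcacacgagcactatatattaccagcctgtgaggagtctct

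CANNTG was matched 2 times in the Muc2 stretch, 3 times for Fcgbp, 1 time for Agr2, 2 times for Ang4 and 3 times for Sval1, counted on both strands. It occurs in 66.2% of the 32851 promoter stretches of this length, so its presence is common. The narrower CAGCTG, which is one form of CANNTG, was found 1 time each in Muc2, Fcgbp and Sval1 and in 13.0% of all stretches. A match is a string of letters and not a measured binding site.

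Summed over cells, the 10 genes held 3118 CPM (UMIs scaled to the same total in every library) when untreated, then 1055 and 716 CPM after 24 h and 48 h, or 0.312%, 0.106% and 0.0716% of all UMIs. All members but Retnlb were lower at both times. By a cut of 1 on the log2 scale, 9 of 10 were lower and 1 was higher at 24 h, where 26.0% of the 17412 genes with at least 10 UMIs were lower and 3.46% higher. At 48 h the members again gave 9 lower and 1 higher, beside 16.6% and 5.26% of 17376 genes. With TMM scaling, which adds 0.45 to every 24 h log2 ratio, 6 members were lower at 24 h, and the all-gene split of 4526 lower and 602 higher became 2903 and 1224. The members' median log2 ratio was -1.52 at 24 h and -2.76 at 48 h, and the median over all genes was -0.46 and -0.18.

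The order of the pooled levels put Agr2 first, Tff3 next and Spink4 after it in each library. A UMI marks 1 transcript end, so no scaling by gene length was applied. In untreated cells Muc2, Fcgbp and Sval1 followed, and Ang4 (61.9 CPM) and Zg16 (60.6 CPM) had overlapping intervals. Clca1 and Retnlb were the 2 lowest untreated members, at 4.08 and 1.22 CPM. At 24 h Sval1 and Muc2, and Ang4 and Zg16, could not be ordered within their intervals, nor could Ang4 and Fcgbp at 48 h. At 48 h Zg16 had gone to the last place, at 0.55 CPM with an interval that overlapped that of Clca1.

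**Figure D1:**
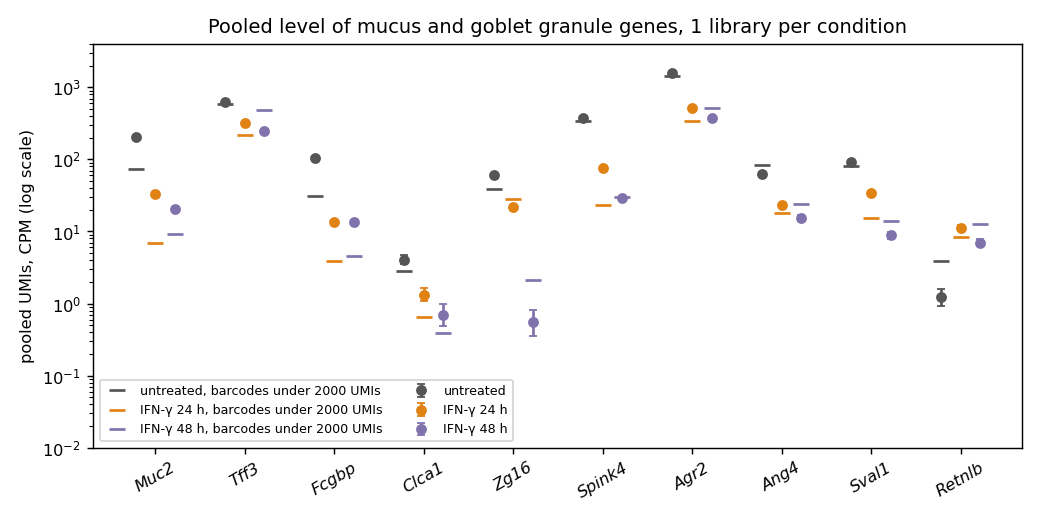
Pooled CPM of each gene on a log axis in the untreated, 24 h and 48 h libraries (1 library each); circles are kept cells with 95% Poisson intervals and dashes are barcodes with under 2000 UMIs. The untreated circle is the highest of the 3 for every gene but Retnlb, whose untreated value of 1.22 CPM is the lowest.

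Muc2, the polymer-forming mucin of colonic mucus, stood at 205 CPM (95% interval 201 to 209) in untreated cells, 32.6 CPM at 24 h and 20.8 CPM at 48 h. Its log2 ratio to the untreated library was -2.65 (-2.72 to -2.59) at 24 h and -3.30 (-3.40 to -3.21) at 48 h, a level 6.28-fold and 9.86-fold lower. Fcgbp, a large von Willebrand domain protein bound to the mucin network, stood at 105 CPM untreated and at 13.4 CPM in each of the treated libraries. Its log2 ratios were -2.97 and -2.98, and the log2 ratio of 48 h to 24 h had an interval of -0.15 to 0.14. Clca1, a secreted metalloprotease that cleaves mucus and loosens it, was counted in only 203, 94 and 33 UMIs. Its level was 4.08, 1.32 and 0.70 CPM, with log2 ratios of -1.62 (-1.99 to -1.26) and -2.54 (-3.12 to -2.01). Without the 3 cells richest in Clca1 the 24 h log2 ratio was -2.41.

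Tff3, the trefoil peptide that goblet cells secrete with mucin and that takes part in epithelial repair, showed the smallest difference of the 9 lower genes. It stood at 636 CPM in untreated cells, 316 CPM at 24 h and 249.9 CPM at 48 h, with log2 ratios of -1.01 (-1.03 to -0.98) and -1.35 (-1.38 to -1.32). The 24 h value sat at the edge of the cut, and it was -0.56 with TMM scaling, -0.71 as a mean over cells and -0.82 without the 5% of cells with the most UMIs. Agr2, an endoplasmic reticulum disulfide isomerase needed for mucin folding, was the most abundant member at 1570.2 CPM, 525 CPM and 370.4 CPM. Its log2 ratios were -1.58 (-1.60 to -1.56) and -2.08 (-2.11 to -2.06).

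Spink4, a Kazal-type peptide of goblet granules, was at 381 CPM untreated, 76.4 CPM at 24 h and 29.0 CPM at 48 h. Its log2 ratios were -2.32 (-2.36 to -2.27) and -3.71 (-3.79 to -3.63). Zg16, a lectin-like granule protein that binds Gram-positive bacteria, was at 60.6, 22.2 and 0.55 CPM. Its 48 h level rested on 26 UMIs and was 110-fold lower than untreated, the largest difference among the members. The 24 h level of Zg16 rested on few cells, since 3 cells held 90.4% of its UMIs, against 56.4% in 3 untreated cells. Without those 3 cells in each library, an alternative chosen after seeing the data, its log2 ratios were -3.64 and -5.89 instead of -1.45 and -6.78.

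Ang4, an angiogenin-family ribonuclease with antimicrobial activity, was at 61.9, 23.2 and 15.6 CPM, with log2 ratios of -1.42 (-1.50 to -1.33) and -1.99 (-2.11 to -1.88). Its close relative Ang shares sequence with it, so some reads may not tell them apart, and Ang stood at 20.3, 12.6 and 14.4 CPM. Sval1, a seminal-vesicle-antigen-like secreted protein, was at 92.8, 34.5 and 8.81 CPM. Its log2 ratio of -1.43 at 24 h went to -3.40 (-3.55 to -3.25) at 48 h. With TMM scaling the 24 h log2 ratios of Ang4 and Sval1 were -0.97 and -0.98, just short of the cut.

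Retnlb, the resistin-like peptide of goblet cells with antimicrobial activity, ran the other way. It was counted in 61 UMIs of untreated cells (1.22 CPM, 0.94 to 1.57), 803 UMIs at 24 h (11.3 CPM, 10.5 to 12.1) and 330 UMIs at 48 h (6.99 CPM, 6.25 to 7.78). Retnlb was higher by a log2 ratio of 3.21 (2.83 to 3.61) at 24 h and 2.51 (2.11 to 2.93) at 48 h, a level 9.22-fold and 5.70-fold higher. Its relative Retnla had no UMI in any library.

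Between 24 h and 48 h, 3 members were lower by at least 1 on the log2 scale, beside 2.31% of 16814 genes, and none was higher, beside 11.6%. These were Zg16 at -5.33 (-2.26 without its 3 richest cells), Sval1 at -1.97 (-2.12 to -1.82) and Spink4 at -1.40 (-1.48 to -1.31). Muc2 (-0.65), Agr2 (-0.50), Ang4 (-0.58), Tff3 (-0.34), Clca1 (-0.92) and Retnlb (-0.69) were also lower at 48 h than at 24 h, each with an interval under 0. The all-gene median of this comparison was 0.26. With TMM scaling its all-gene split of 388 lower and 1958 higher became 687 and 1070.

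The next question was whether fewer cells held a given transcript or whether each cell that held it held less. At 5000 UMIs per cell, 115 of 1058 untreated cells had at least 1 Muc2 UMI, a share of 10.9% (9.06 to 12.9). The share was 4.91% (3.60 to 6.51) at 24 h and 3.92% (3.25 to 4.69) at 48 h. The mean over those cells was 7.50, 3.44 and 2.36 Muc2 UMIs. On the log2 scale the 24 h difference in Muc2 divided into -1.15 for the share and -1.12 for the level per cell, and at 48 h into -1.47 and -1.67. The division depended on the threshold. Counted from cells with at least 5 Muc2 UMIs, it was -2.41 for the share and -0.47 for the level at 24 h, and -3.35 and -0.88 at 48 h.

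In the split at 1 UMI, the 24 h differences of Fcgbp and Spink4 lay more in the share of cells. A lower level can also take a cell below the threshold, so the split does not separate fewer cells from less per cell. The share with Fcgbp was 14.5%, 3.82% and 4.46% in the 3 libraries, and the 24 h difference divided into -1.92 for the share and -1.01 for the level per cell. For Spink4 the share was 22.2%, 6.11% and 4.81%. Its 24 h difference was -1.86 in the share and -0.18 in the level per cell, and at 48 h -2.21 and -1.37. The Spink4 share at 1 UMI also counts cells with a low goblet identity score, for which values follow below. From 5 UMIs upward the 24 h parts were -3.15 and -0.40 for Fcgbp and -1.47 and -0.61 for Spink4. In cells chosen by a high goblet identity score, described below, the 24 h log2 ratios per cell were -2.08 for Fcgbp and -1.24 for Spink4. Sval1 had a share of 11.5%, 5.45% and 2.76% and a level per cell that differed by -0.04 at 24 h and -1.13 at 48 h.

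Agr2 and Tff3 differed from the rest at 48 h. Cells with an Agr2 UMI made up 63.7%, 40.8% and 57.0% of the libraries, and the 48 h difference divided into -0.16 for the share and -1.69 for the level per cell. From 5 UMIs upward the same parts were -1.07 and -1.46. Cells with a Tff3 UMI made up 33.5%, 17.1% and 41.2%. The 48 h share of Tff3 at 1 UMI goes against its lower pooled level, so no order was read from it. From 5 UMIs upward the 48 h parts of Tff3 were -0.89 for the share and -0.75 for the level per cell. In the same library Tff3 stood at 479.7 CPM in barcodes with under 2000 UMIs, above its 249.9 CPM in kept cells. Tff3 was not alone in this. Agr2 (525 against 370.4 CPM), Ang4 (23.7 against 15.6), Sval1 (13.8 against 8.81), Zg16 and Retnlb were also higher in these barcodes at 48 h. Spink4 was nearly level (29.8 against 29.0 CPM), and Muc2, Fcgbp and Clca1 were lower.

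Free RNA can give UMIs in cells that do not make a transcript. The shares with 1 UMI were therefore set beside cells with at least 5 UMIs of mitotic genes and a low goblet identity score. Whether these mitotic cells make any of the members was not tested. In those cells (502, 640 and 1896, median depth 35231, 75382 and 10334 UMIs before thinning) a Tff3 UMI was found in 21.9%, 11.4% and 37.9%. An Agr2 UMI was found in 56.4%, 35.9% and 54.1% of them, and a Muc2 UMI in 2.59%, 1.41% and 1.90%. For Spink4 it was 12.7%, 3.1% and 3.06% of them, beside 22.2%, 6.11% and 4.81% of all cells. As a ratio, the share of all cells with Tff3 or Agr2 thus lay not far above that of this class, and the share with Muc2 lay further above it. Part of each gap follows from the choice of the class, which leaves out cells with a higher goblet identity score. The class takes scores under 3 UMIs, with a mean of 0.528, 0.403 and 0.447, so it is not free of goblet identity UMIs. Among all cells with a score of 0 a Tff3 UMI was found in 20.2%, 10.5% and 34.0%. Barcodes with under 2000 UMIs held Agr2 at 1425, 340.2 and 525 CPM and Muc2 at 72.5, 6.98 and 9.28 CPM. Spink4 stood at 343, 23.5 and 29.8 CPM in them. How much of each share came from free RNA was not tested.

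At a higher threshold the mitotic class held fewer such cells. At least 5 Tff3 UMIs were found in 1.20%, 2.34% and 1.90% of it, at least 5 Agr2 UMIs in 4.78%, 3.44% and 3.22%, and at least 5 Muc2 UMIs in 1 cell, 1 cell and no cell. Over all cells, at least 5 Muc2 UMIs were found in 55 of 1058 untreated cells (95% interval 3.94% to 6.71%), in 0.981% (0.450 to 1.85) at 24 h and in 0.511% (0.286 to 0.842) at 48 h. For Spink4 the shares were 6.33%, 2.29% and 0.443%. For Tff3 they were 9.17% (7.50 to 11.1), 7.09% (5.51 to 8.95) and 4.94% (4.19 to 5.79), so the 24 h interval overlapped the untreated one. For Agr2 they were 14.0%, 7.74% and 6.65%. At this cut of 5 UMIs, cells with Muc2 were thus rarer at 24 h by more than cells with Tff3. The log2 ratios of the share were -2.41 and -0.37. The 24 h difference in Tff3 was larger at a higher cut. At least 30 Tff3 UMIs were found in 2.84% of untreated cells and 0.981% of cells at 24 h.

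**Figure D2:**
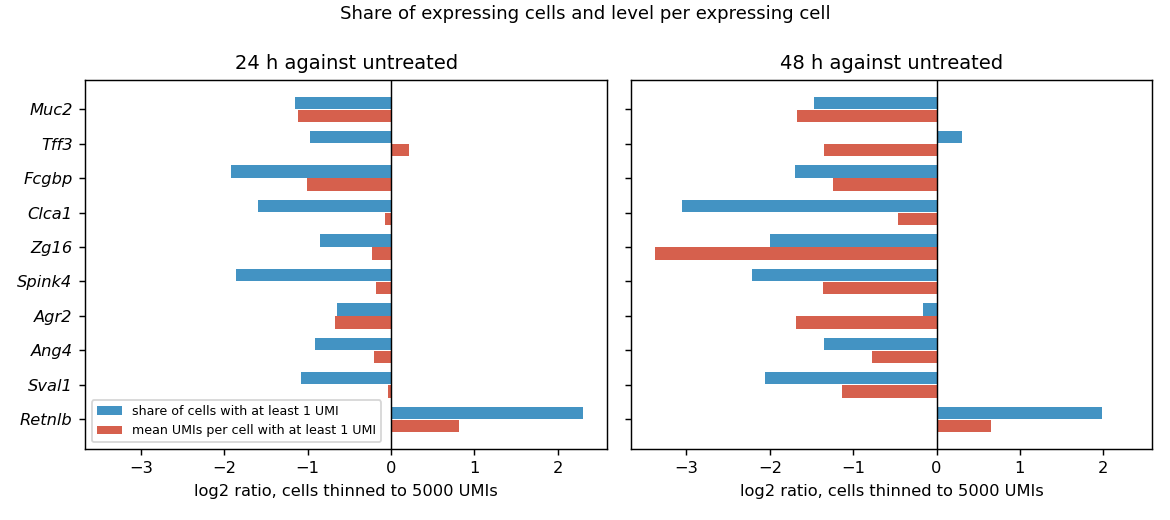
Log2 ratio of the share of cells with at least 1 UMI (blue) and of the mean UMIs in those cells (red) for each gene, at 24 h and 48 h against untreated, all cells at 5000 UMIs. Red bars at 24 h are near 0 for Sval1, Clca1, Spink4, Ang4 and Zg16 (-0.04, -0.07, -0.18, -0.20 and -0.23). At 48 h they are longer, at -1.13, -0.46, -1.37, -0.78 and -3.38. For Tff3 the red bar is 0.22 at 24 h and -1.35 at 48 h.

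Counted over all 10 members, 7 had a smaller share of cells with a UMI at 24 h with intervals that did not overlap, and 8 at 48 h. The same rule was met by 24.6% of 13453 genes at 24 h and by 24.2% of 14577 genes at 48 h. A larger share at 1 UMI was counted for 1 member at 24 h, Retnlb, and for 2 at 48 h, Retnlb and Tff3. Among all genes it was counted for 10.5% and 12.4%. No order was read from the 48 h Tff3 share, as said above. From 5 UMIs upward the Tff3 share was 9.17% untreated and 4.94% at 48 h. Between 24 h and 48 h the share was smaller for 1 member and larger for 2, beside 8.66% and 14.8% of 14058 genes. The mean per positive cell was lower for 8 members at 24 h, all but Tff3 and Retnlb, and for 9 at 48 h, all but Retnlb. It was also lower for 56.7% of 13351 genes at 24 h and 60.6% of 14467 genes at 48 h, so a lower mean was common among all genes.

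**Figure D3:**
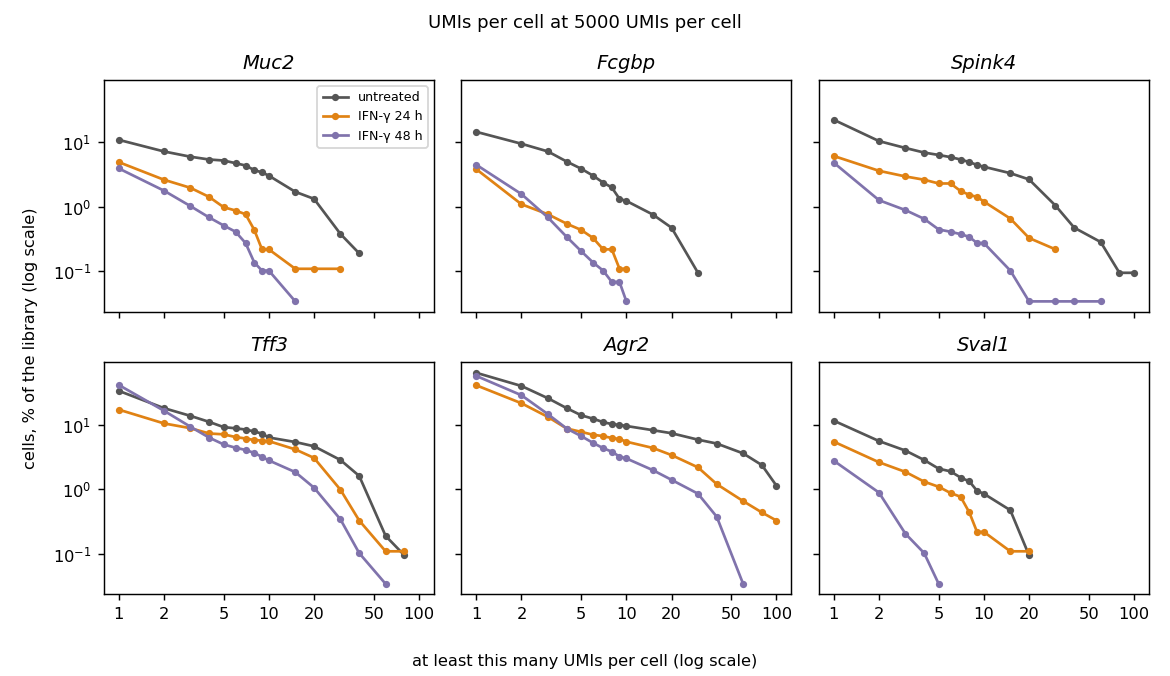
Percent of cells (log axis) with at least the number of UMIs on the horizontal log axis, for 6 genes at 5000 UMIs per cell in the 3 libraries. The untreated curve of Muc2 runs out to 40 UMIs and the 48 h curve ends at 15. For Tff3 the 24 h curve lies below the untreated one at 1 UMI (17.1% against 33.5% of cells). These Tff3 curves are nearer to each other at 10 UMIs (5.56% against 6.33%) and further apart again at 30 UMIs (0.981% against 2.84%).

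Cells were then chosen by genes other than the members. A goblet identity score summed 16 genes, among them Atoh1, Spdef, Creb3l1 and Hepacam2, and cells with at least 3 of these UMIs were taken. This is a range of a score and not a cell type, and 93, 57 and 239 cells lay 1 UMI below the cut and 45, 32 and 92 exactly at it. It held 196, 85 and 229 cells of the untreated, 24 h and 48 h libraries, with a median depth of 29962, 56705 and 10301 UMIs before thinning. The number of such cells is no result, since the score genes were themselves lower in treated cells. Their mean score was 8.98, 5.25 and 5.08 UMIs, and a mean of 5.81, 5.78 and 1.96 enteroendocrine UMIs fell in them, at a median of 0. These cells held 95.9%, 85.8% and 79.7% of all Muc2 UMIs, and 83.7%, 62.7% and 40.3% of all Agr2 UMIs.

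Within these cells Muc2 averaged 4.22 UMIs untreated, 1.56 at 24 h and 0.943 at 48 h, with log2 ratios of -1.43 (-1.71 to -1.17) and -2.16 (-2.38 to -1.94). Fcgbp averaged 2.89, 0.682 and 0.699 UMIs, and Spink4 7.47, 3.15 and 1.17 UMIs. Agr2 averaged 28.6, 17.2 and 9.06 UMIs, with log2 ratios of -0.73 (-0.82 to -0.65) and -1.66 (-1.73 to -1.58). The level of these 4 genes was lower per cell at each time, in cells whose mean goblet identity score was also lower. These means therefore compare cells of unlike score.

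Tff3 averaged 12.0 UMIs per goblet-score cell untreated and 11.8 at 24 h, a log2 ratio of -0.03 (-0.13 to 0.08), and 7.28 at 48 h, a log2 ratio of -0.72 (-0.81 to -0.63). Zg16 (0.05, -0.33 to 0.41) and Sval1 (-0.24, -0.54 to 0.05) also had 24 h intervals that held 0, as did Clca1 (-2.86 to 0.29). For Zg16 only 6 of 85 cells at 24 h and 11 of 196 untreated cells had any UMI, and the highest 24 h cell held 66 of the 98 Zg16 UMIs of that library. At 48 h the log2 ratios of Zg16 and Sval1 were -5.55 (-7.19 to -4.31) and -2.61. In cells with a score of at least 5 UMIs the 24 h log2 ratio of Tff3 was 0.21 (0.09 to 0.33). Ang4 averaged 1.43, 1.06 and 0.524 UMIs, and its 48 h log2 ratio of -1.45 was -0.80 among cells with at least 10000 UMIs. Retnlb averaged 0.0255, 0.282 and 0.223 UMIs, with log2 ratios of 3.47 (2.05 to 5.21) and 3.13 (1.81 to 4.81), from 5, 24 and 51 UMIs.

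In all, 5 of the 10 members were lower per goblet-score cell at 24 h with an interval under 0, and 9 were at 48 h. These intervals count UMIs and leave out the spread between cells. The rule was met by 17.3% of 10285 genes at 24 h and 19.0% of 11037 genes at 48 h. Retnlb was higher at both times, beside 10.7% of genes at 24 h and 10.7% at 48 h. Between 24 h and 48 h it was met by 7 of the 9 members with enough UMIs, beside 8.65% of 10075 genes, and none was higher, beside 9.07%. The 24 h count ran from 4 with a score of at least 5 UMIs to 7 with a score of at least 2 UMIs, with at least 10000 UMIs per cell or with at most 10% mitochondrial UMIs. The 48 h count was 9 in every alternative run.

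**Figure D4:**
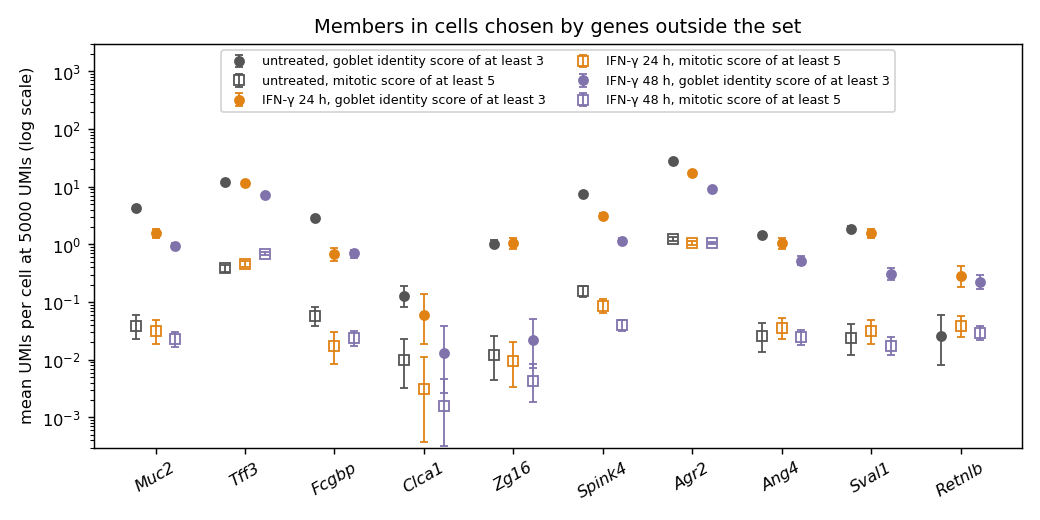
Mean UMIs per cell at 5000 UMIs (log axis) in cells with a goblet identity score of at least 3 (filled circles) and in mitotic cells without that score (open squares), with 95% Poisson intervals, in the 3 libraries. Filled circles lie above the squares of the same library for each gene, and the untreated and 24 h circles of Tff3 (12.0 and 11.8) and Zg16 (1.03 and 1.06, from 11 and 6 cells with a UMI) nearly coincide; the untreated mitotic cells held no Retnlb UMI and have no square.

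Co-detection of the members was then counted. Among cells with at least 5 Tff3 UMIs (97, 65 and 145 cells), 68.0% (57.8 to 77.1) also had Muc2 in the untreated library, 55.4% (42.5 to 67.7) at 24 h and 37.2% (29.4 to 45.7) at 48 h. For Fcgbp the shares were 76.3%, 32.3% (21.2 to 45.1) and 35.2% (27.4 to 43.5). Spink4 was found in 81.4%, 58.5% and 36.6% of them and Sval1 in 72.2%, 56.9% and 26.2%. Agr2 stayed in nearly all of them, at 96.9%, 92.3% and 96.6%, while its mean in them was 50.5, 25.7 and 15.2 UMIs. An Agr2 UMI was also found in 60.4%, 36.9% and 54.9% of the other cells. Retnlb went from 3.09% (0.642 to 8.77) to 24.6% (14.8 to 36.9) and 13.8% (8.63 to 20.5). Of the cells with at least 5 Tff3 UMIs, 89, 43 and 92 were goblet-score cells, so they were not alike across libraries. The falling Muc2 share depended on the gene used to choose cells. With at least 5 Agr2 UMIs it was 62.2%, 56.3% and 36.4%. With at least 5 Spink4 UMIs (67, 21 and 13 cells) it was 86.6%, 81.0% and 100%.

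Cells with at least 2 UMIs of 3 or more members made up 11.3% (9.49 to 13.4) of untreated cells, 5.78% (4.36 to 7.49) at 24 h and 3.37% (2.75 to 4.09) at 48 h. With 5 or more members the shares were 7.09%, 2.40% and 0.682%. For 7 or more members they were 1.51% and 0.545%, and at 48 h 0 of 2934 cells, which allows a share of up to 0.102% (3 counts of the cells).

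At 5000 UMIs per cell Retnlb was detected in 7 untreated cells, 30 cells at 24 h and 77 at 48 h. Their share was 0.662% (0.266 to 1.36), 3.27% (2.22 to 4.64) and 2.62% (2.08 to 3.27). In mitotic cells with a low goblet identity score the share was 0 of 502, which allows up to 0.598% by the same 3 counts, then 2.03% and 2.11%. At 24 h the cells with Retnlb held a mean of 23.6 Agr2, 10.3 Tff3 and 1.73 Muc2 UMIs, and the cells without it 1.83, 1.21 and 0.116. At 48 h the same means were 7.01, 4.65 and 0.494 against 1.61, 1.13 and 0.0816. Their mean goblet identity score was 3.20 against 0.764 at 24 h and 2.45 against 0.784 at 48 h. Of all Retnlb UMIs, 45.3% at 24 h and 42.1% at 48 h fell in goblet-score cells, which were 9.27% and 7.81% of the cells.

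The 10 other genes named next tracked the members most closely over the 1058 untreated cells, by Pearson correlation of log2(1 + UMIs) with the summed members at 5000 UMIs per cell. They were Slc12a8 (0.62), Creb3l1 (0.59), Selenom (0.57), Spdef (0.56), Hepacam2 (0.56), Klk1 (0.55), Ramp1 (0.55), Kcnma1 (0.55), Sytl2 (0.55) and Reg4 (0.52). The cells share 1 library and the correlations are a description. These genes were chosen in the untreated library, among genes with at least 100 UMIs in its cells at 5000 UMIs each. Lower levels of them in the treated libraries are thus no separate result. All of them had pooled levels below untreated at both times, by unlike amounts. Slc12a8, the closest, had log2 ratios of -3.02 and -2.33. Creb3l1, Spdef, Hepacam2, Klk1 and Sytl2 are also genes of the goblet identity score. Reg4 went from 119.8 CPM to 3.62 and 1.23 CPM and Klk1 from 31.0 to 1.83 and 0.70 CPM. Selenom, a selenoprotein of the endoplasmic reticulum, was at 74.5, 61.8 and 47.9 CPM. Kcnma1, a calcium-activated potassium channel, was at 78.0 CPM untreated, 22.5 CPM at 24 h and 66.6 CPM at 48 h, so its 48 h level was the nearer one to untreated.

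Among the 16 goblet identity genes most were lower than untreated at both times. By the cut of 1 on the log2 scale 14 of 16 were lower at 24 h and 13 of 16 at 48 h, none was higher, and their medians were -1.93 and -2.09. For this list and those that follow, the all-gene shares were 26.0% lower and 3.46% higher at 24 h, and 16.6% and 5.26% at 48 h. Klk1, a kallikrein protease, differed most, with log2 ratios of -4.09 (-4.35 to -3.83) and -5.47 (-6.02 to -4.98). Bace2, a membrane aspartyl protease, was at -3.09 and -3.16, Bcas1 at -2.78 and -2.75, Creb3l1, a membrane-bound transcription factor of secretory cells, at -2.39 and -2.45, and Capn9, a calpain protease, at -2.35 and -2.91. Atoh1 stood at -1.52 and -1.77 and Spdef at -1.42 and -1.49. Between 24 h and 48 h, 1 of the 16 was lower, beside 2.31% of all genes. Their median was -0.06, where that of the members was -0.67. Foxa3, a forkhead factor of the goblet lineage, was at 48.7, 47.2 and 45.3 CPM, log2 ratios of -0.05 and -0.10.

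A list of mucin glycosylation genes was divided. It also holds genes of wider glycosylation, such as Fut8 and Slc35a1, and it shares Galnt12 with the goblet identity list. Of its 27 genes with enough UMIs, 14 were lower and 1 was higher at 24 h, and 12 were lower and 1 was higher at 48 h, with medians of -1.10 and -0.82. Gcnt3, the branching enzyme of mucin glycans, was at 16.7, 1.60 and 0.55 CPM, log2 ratios of -3.38 (-3.68 to -3.10) and -4.93 (-5.55 to -4.37). St6galnac6, a sialyltransferase, was at -2.84 and -2.83, Chst4, a sulfotransferase, at -2.31 and -2.12, and Galnt6, a polypeptide GalNAc-transferase, at -2.20 and -2.04. Gcnt4 was at -2.41 and -1.39. C1galt1, which makes the core structure that most mucin O-glycans share, had log2 ratios of -0.54 and -0.39, and was chosen after its values were seen.

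Granule release and endoplasmic reticulum genes were nearer to the background. Of 29, 9 were lower and 1 was higher at 24 h, and 8 were lower and 1 was higher at 48 h, with medians of -0.51 and -0.27 that lay close to those of all genes. The lower ones included Creb3l4 (-2.27 and -2.15), Ern2, the mucosal stress sensor of secretory cells (-1.96 and -1.29), and Tgm3, a transglutaminase that cross-links mucus (-3.51 and -5.27). Its relative Tgm2 was the higher one, at 2.53, 6.16 and 11.3 CPM, log2 ratios of 1.28 and 2.16 (1.88 to 2.45). Ern1, the widely expressed relative of Ern2, was at -0.67 and 0.23. Creb3l1, Creb3l4, Ern2 and Sytl2 are also goblet identity genes, so these lists are not separate.

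Other mucins and mucus-layer proteins were lower in 12 of 16 at 24 h and 9 of 16 at 48 h, none was higher, and their medians were -1.77 and -1.35. Reg4, a secreted lectin, had log2 ratios of -5.05 (-5.24 to -4.87) and -6.61 (-7.01 to -6.24). Dmbt1, a scavenger receptor protein of mucus, was at -4.20 and -5.83, Itln1, a lectin that binds microbial glycans, at -2.69 and -2.97, and Guca2a, the precursor of guanylin, at -2.74 and -2.11. Tff2 was at 72, 17 and 1 UMIs. Muc4, a transmembrane mucin, was at 42.0, 35.6 and 57.4 CPM, log2 ratios of -0.24 and 0.45.

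**Figure D5:**
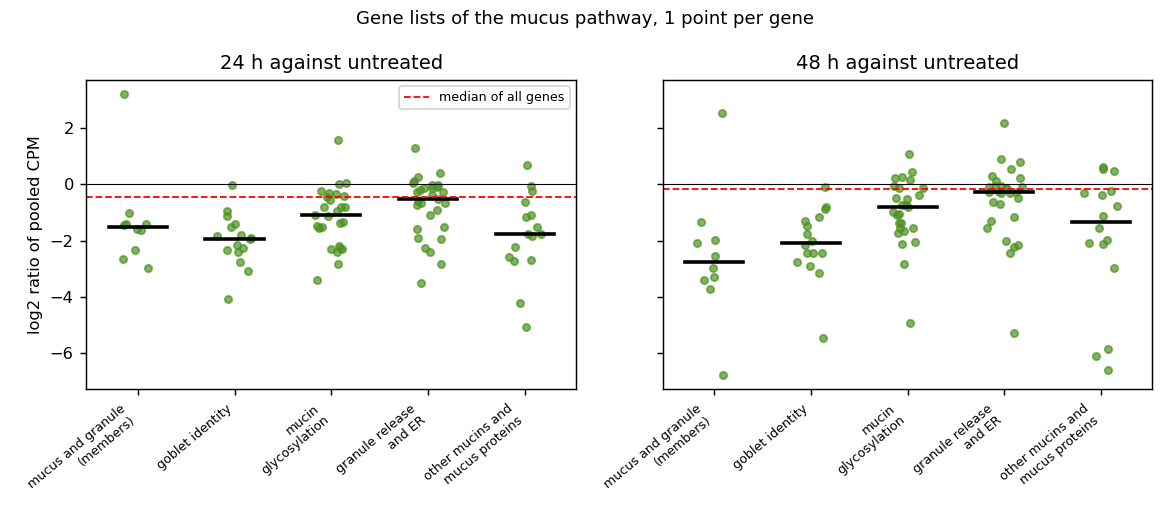
Log2 ratio of pooled CPM to the untreated library for each gene (points) of 5 lists at 24 h and 48 h; black bars are list medians and the red dashed line is the median of all genes. The members' medians are -1.52 and -2.76, and the granule release and endoplasmic reticulum list lies nearest to the dashed line at -0.51 and -0.27.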

How the data were processed

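The authors used Cell Ranger 6.0.1 and mm10 for these droplet 3' libraries and deposited 1 matrix of raw UMI counts per library. The annotation release is not given in the sources used here. The lowest barcode totals were 1390, 851 and 1624 UMIs, so barcodes below the depth of a kept cell were included. Whether these were empty droplets or shallow cells was not tested.

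Following the study's methods, a barcode counted as a cell from 5000 UMIs and 400 genes upward, with no more than 15% mitochondrial UMIs. Total UMIs in kept cells were 49801935, 71077817 and 47243500. Counts were summed per library and scaled to CPM, with exact Poisson intervals for levels, conditional binomial intervals for ratios and Clopper-Pearson intervals for shares, all at 95% and for counting error only. For a share of 0 the limit printed is 3 counts of the cells. Cells were thinned without replacement to 5000 UMIs. Genes needed at least 10 UMIs over 2 libraries, and a library at 0 was set to 3 counts. No test was made, since each condition has 1 library. Doublets were kept and no caller was run. The scripts were tested on simulated data.

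The members and gene lists were chosen with earlier results of these data known. Named are the members, the 4 largest absolute log2 ratios per list and comparison among genes with at least 50 UMIs, the 10 genes most correlated with the members, paralogs and score markers. Alternatives were other cell filters, TMM scaling, means over cells, other thinning depths, score and list cuts. Positions came from GENCODE vM21, which held 32158 of 32285 gene IDs. Python 3.11.15 with NumPy 2.4.6 and SciPy 1.17.1 and edgeR 4.0.16 (TMM factors only) were used.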

Additional observations from a re-analysis of the deposited data

Results flagged for a closer look

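Retnlb was above its untreated level in 3 of 4 sets of barcodes below the depth of kept cells. In barcodes with under 2000 UMIs it stood at 8.43 CPM (7.24 to 9.75) at 24 h and 12.8 CPM (11.4 to 14.2) at 48 h, against 3.92 CPM in the untreated library. In barcodes with 2000 to under 5000 UMIs it was at 12.1 CPM (10.3 to 14.2) at 48 h, against 4.07 CPM untreated, and at 3.96 CPM at 24 h, which was not above it. The latter barcodes entered only the alternative that kept cells from 2000 UMIs. The 3 higher values were picked out because they are signal outside the kept cells that exceeds the control library. In kept cells the 48 h level was 6.99 CPM, below that of the discarded barcodes, and the untreated level was 1.22 CPM. Where this RNA came from was not tested.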

How the results depend on the processing

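No paired analysis was possible because each group has 1 library without a replicate number, and no replicate could be left out. No member ratio past the cut changed its sign. The members' median log2 ratio at 24 h, -1.52, was -1.61 with at most 10% mitochondrial UMIs, -1.41 without the 5% of cells with the most UMIs, -1.30 as a mean over cells, -1.07 with TMM and -2.01 without the 3 richest cells of each gene (chosen after seeing the data). For 48 h against 24 h it was -0.67, and -0.85, -0.93 and -0.45 under the last 3. TMM adds 0.45 and 0.19 to every log2 ratio to the untreated library, at 24 h and 48 h, and -0.26 to 48 h against 24 h. With TMM 6 instead of 9 members were lower past the cut at 24 h, and 9 at 48 h. Fcgbp at 48 h against 24 h was 0.18 as a mean over cells and 0.42 without the 3 richest cells. Clca1 in that comparison was past the cut with TMM (-1.18), as a mean over cells (-1.30), from 2000 UMIs per cell (-1.22) and without the 5% of cells with the most UMIs (-1.04).

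All-gene counts moved more. At 24 h 4526 genes were lower and 602 higher, which became 2903 and 1224 with TMM, 1601 and 280 (members 3 lower) at a cut of 2, and 2826 lower with at least 50 UMIs. At 48 h 2876 and 914 became 994 and 385 at a cut of 2 and 1713 and 594 with at least 50 UMIs. For 48 h against 24 h, 388 and 1958 became 687 and 1070 with TMM, 76 and 247 (members 1 lower) at a cut of 2, and 180 and 1010 with at least 50 UMIs. The 48 h cells were the shallowest, and Clca1, Zg16 and Retnlb rest on few UMIs per cell. Among these alternatives, counts of members by share and by level per cell stayed within 1.5 times of the values given.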

Other observations

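Genes of deep crypt secretory and Paneth-like cells, which sit beside goblet cells in the secretory lineage, were mostly lower under IFN-γ. Lyz1, a lysozyme, was at 114 CPM untreated, 6.57 CPM at 24 h and 0.74 CPM at 48 h. Mptx1, a pentraxin of Paneth cells, was at 52.2 CPM, 0.42 CPM and 0 CPM, and its log2 ratio at 48 h was at or below -9.68 with the count of 0 set to 3. Kit, a receptor of deep crypt secretory cells, was lower by log2 ratios of -3.23 and -2.89. Mmp7, a matrix metalloprotease of Paneth cells, was at 62.7, 58.5 and 85.8 CPM. Of the 7 genes of this list with enough UMIs at 24 h, 5 were lower by the cut of 1 on the log2 scale, beside 26.0% of all genes.

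Of 12 relatives of the members with enough UMIs, 10 were lower by the cut at 24 h and 5 at 48 h, and none was higher. Among all genes 26.0% and 16.6% were lower. The relatives lower at 24 h included Agr3 (4 against 6 UMIs) and Spink5 (7 against 12 UMIs), whose intervals held 0. Retn and Sval3 were also among them, with 2 and 8 UMIs at 24 h. Clca3b was at 133 CPM untreated, 39.1 CPM at 24 h and 85.0 CPM at 48 h, and Clca3a2 at 14.4, 2.83 and 9.99 CPM. Both were higher at 48 h than at 24 h, with log2 ratios of 1.12 and 1.82, where Clca1 was at -0.92. Spink1 was at 48.0, 13.3 and 1.29 CPM.

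Other marker lists were counted by the same cut. Among all genes 26.0% were lower and 3.46% higher by it at 24 h, and 16.6% and 5.26% at 48 h. Of 12 colonocyte genes 8 were lower at each time, of 11 enteroendocrine genes 2 were lower and 3 higher at 24 h and 7 lower at 48 h, and of 14 mitotic genes none passed it. Of 8 stem cell genes 3 were lower at 24 h and none at 48 h. Of the tuft cell genes with enough UMIs, 1 of 7 was lower and 3 were higher at 24 h, and 2 of 5 were lower and 2 higher at 48 h.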
